A study of Mus musculus with 4 samples.

Results

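Genes of catecholamine synthesis and of secretory granules were followed in spatial transcriptomes of embryonic and newborn mouse tissue. The set holds 8 of the 32285 genes in the files, taken by symbol: Th, Dbh, Ddc, Slc18a2, Chga, Chgb, Hand2 and Phox2a. It was drawn up after their levels in these sections were known, so levels and places are given as descriptions. All tissue was wild type (WT), without treatment, fresh frozen and cut at 8 µm on Visium slides, whose barcoded spots each capture RNA from a small region that can hold several cell types. There was 1 E13.5 section and 1 E16.5 section, both labelled as mouse embryo for tissue although titled as esophagus, and there were 2 sections of newborn (P0) esophagus. The labels name no animals, and neither stage of embryo has a replicate. Stage and tissue differ together between the embryo and P0 sections and cannot be told apart.

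Catecholamines are made from tyrosine. Th (tyrosine hydroxylase) performs the rate-limiting step to L-DOPA, Ddc (aromatic L-amino acid decarboxylase) makes dopamine and also serotonin, and Dbh (dopamine beta-hydroxylase) makes noradrenaline inside vesicles. Slc18a2 encodes the vesicular monoamine transporter VMAT2, which loads these transmitters. Chga and Chgb encode chromogranins A and B, acidic proteins of dense-core granules in endocrine cells and neurons. Hand2 (a basic helix-loop-helix factor) and Phox2a (a homeodomain factor) act in the development of sympathetic neurons and adrenal medulla from the neural crest. Phox2a also acts in noradrenergic neurons of the hindbrain, and Hand2 also in heart and limb bud. A spot with Th and Dbh therefore holds RNA of both the starting and the noradrenaline-forming enzyme, whereas Th also occurs without Dbh in dopamine neurons.

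The 250 bases before the annotated start are shown for 4 members, since the promoters of Th, Chga and Chgb hold a like 8-base element and the Dbh promoter a repeated core. They come from RefSeq (GRCm38.p6), on the coding strand, 5′ to 3′. Capitals mark the cAMP response element type of motif TGACGTNA in Th, Chga and Chgb and the homeodomain core ATTA in Dbh.
Th (chr7:142899996-142900245, minus strand): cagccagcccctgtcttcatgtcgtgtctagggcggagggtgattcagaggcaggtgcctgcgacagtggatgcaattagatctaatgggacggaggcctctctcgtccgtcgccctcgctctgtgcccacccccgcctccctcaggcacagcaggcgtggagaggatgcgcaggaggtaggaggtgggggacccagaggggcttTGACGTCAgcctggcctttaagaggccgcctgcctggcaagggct
Chga (chr12:102554691-102554940, plus strand): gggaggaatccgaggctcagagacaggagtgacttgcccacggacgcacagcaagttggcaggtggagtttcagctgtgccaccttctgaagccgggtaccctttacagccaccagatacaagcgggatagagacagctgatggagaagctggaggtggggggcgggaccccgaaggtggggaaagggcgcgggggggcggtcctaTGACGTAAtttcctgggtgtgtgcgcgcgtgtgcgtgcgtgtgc
Chgb (chr2:132781392-132781641, plus strand): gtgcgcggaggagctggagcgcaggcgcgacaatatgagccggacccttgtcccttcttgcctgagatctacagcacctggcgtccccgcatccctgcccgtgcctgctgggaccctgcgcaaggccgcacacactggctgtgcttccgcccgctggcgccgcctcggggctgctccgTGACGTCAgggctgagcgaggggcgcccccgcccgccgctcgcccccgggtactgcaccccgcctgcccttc
Dbh (chr2:27165257-27165506, plus strand): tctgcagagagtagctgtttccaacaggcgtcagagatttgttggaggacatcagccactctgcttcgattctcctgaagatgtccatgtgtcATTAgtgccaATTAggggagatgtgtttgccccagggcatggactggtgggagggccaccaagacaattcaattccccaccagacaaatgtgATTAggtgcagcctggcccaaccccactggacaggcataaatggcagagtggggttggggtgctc
TGACGTNA was searched on both strands and lay 45 bases before the start in Th, 44 in Chga and 72 in Chgb, with TGACGTCA in Th and Chgb and TGACGTAA in Chga. Of 32851 such windows over all genes, 828 (2.52%) held it. No other member's window matched it. ATTA, on both strands, occurred 3 times in the Dbh window, 157, 147 and 65 bases before the start, and at least 3 times in 5671 of all windows (17.3%). The Th window held ATTA 2 times, the Hand2 window 5 times, the 2 Ddc windows 3 and 2 times, those of Slc18a2 and Chga 1 time each and those of Chgb and Phox2a 0 times. These matches are letters in a window and say nothing of binding.

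Depth was similar per spot in the 4 sections. With spots of at least 500 UMIs (unique molecular identifiers, counts of captured molecules) kept, the E13.5 section had 3220 spots, the E16.5 section 3588, P0 replicate 1 had 363 and P0 replicate 2 had 264. Median UMIs per spot ranged from 25465 to 29289, and section totals over the spots kept from 7356008 to 105834164 UMIs. A level is given in CPM, the gene's UMIs per 1000000, and its 95% interval is an exact Poisson one that covers counting error only. In such sums fewer cells of a type and less RNA per cell cannot be told apart.

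The synthesis genes did not follow a common course over the sections. The 2 embryo sections also held different tissue. Outside spots with both Th and Dbh UMIs, the liver gene Alb had 228 CPM at E13.5 and 2.60 CPM at E16.5. The lung gene Sftpc had 2.54 and 317 CPM, and the muscle gene Acta1 158 and 4008 CPM. Stage and tissue thus cannot be told apart between the embryo sections either. Th (ENSMUSG00000000214, chr7:142892779-142899995) had 16.1 CPM in the E13.5 section (interval 15.3 to 16.9), 2.15 CPM in that of E16.5 (1.88 to 2.45), and 1.17 and 0.544 CPM in the P0 sections. Dbh (ENSMUSG00000000889, chr2:27165507-27183204) went alongside it, with E13.5 at 18.7 CPM (17.9 to 19.6), E16.5 at 2.83 CPM (2.52 to 3.17), and 0.585 and 0.680 CPM at P0. Relative to E13.5, the E16.5 level was 0.134 for Th and 0.151 for Dbh. Ddc (ENSMUSG00000020182, chr11:11814101-11898144) ran the other way in the embryo, with E13.5 at 15.1 CPM (14.4 to 15.9) and E16.5 at 35.9 CPM (34.8 to 37.0). Its P0 levels were 3.90 and 11.4 CPM, whose intervals of 2.79 to 5.31 and 9.11 to 14.1 do not overlap, so the 2 newborn sections differed by more than counting error. Slc18a2 (ENSMUSG00000025094, chr19:59260878-59296012) varied little in the embryo, with E13.5 at 10.4 CPM (9.80 to 11.1) and E16.5 at 8.86 CPM (8.30 to 9.45), and had 0.975 and 1.63 CPM at P0.

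The granins differed little between the embryo sections and were far lower in the newborn esophagus. Chga (ENSMUSG00000021194, chr12:102554941-102565027) had 53.8 CPM in the E13.5 section (52.4 to 55.3) and 54.6 CPM in that of E16.5 (53.2 to 56.0), intervals that overlap. Chgb (ENSMUSG00000027350, chr2:132781642-132795079) had 68.3 CPM in the E13.5 section (66.7 to 69.998) and 62.7 CPM in that of E16.5 (61.2 to 64.2). In the newborn esophagus Chga had 2.05 and 1.77 CPM and Chgb 1.17 and 1.77 CPM, so that the E16.5 section was 28.6-fold (Chga) and 42.7-fold (Chgb) above the P0 mean. Chga UMIs were found in 40.5% of E13.5 spots and 38.3% of E16.5 spots, whereas Th UMIs were in 12.95% and 3.48%.

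Of the transcription factors, Hand2 was the one member with a P0 mean above its E16.5 level. Hand2 (ENSMUSG00000038193, chr8:57320983-57324517) had 22.5 CPM in the E13.5 section (21.6 to 23.5), 7.59 CPM in that of E16.5 (7.07 to 8.13), and 10.8 and 11.4 CPM at P0. Its P0 mean of 11.1 ± 0.425 CPM (SD, n = 2) was 1.47 times the E16.5 level. Phox2a (ENSMUSG00000007946, chr7:101818313-101822726) had 12.7 CPM in the E13.5 section (11.96 to 13.4), 3.997 CPM in that of E16.5 (3.62 to 4.396), and 0.877 and 2.31 CPM at P0. At P0, Th, Dbh, Slc18a2, Chga, Chgb and Phox2a rested on 4 to 21 UMIs per section.

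**Figure D1:**
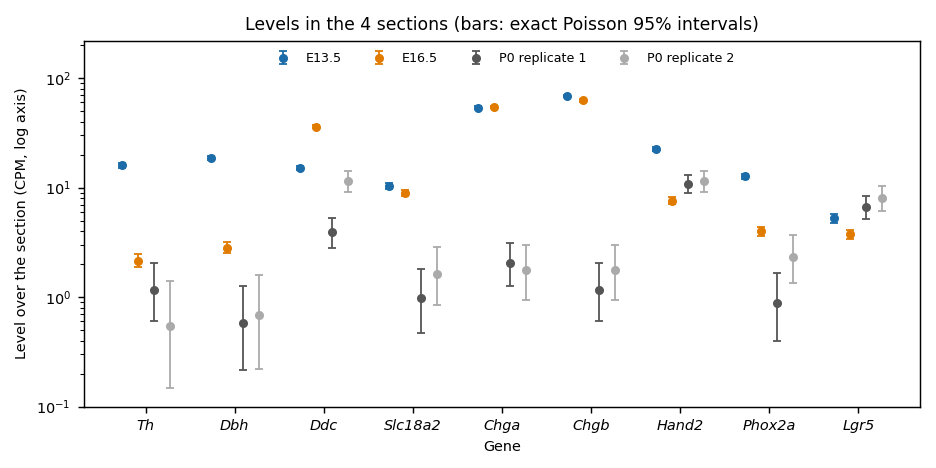
Level of each of the 8 genes and of Lgr5 in the 4 sections, in CPM on a log axis; points are sections and bars exact Poisson 95% intervals. Th and Dbh are highest at E13.5 (16.1 and 18.7 CPM), Ddc at E16.5 (35.9 CPM), and Hand2 lies near 11 CPM in both P0 sections.

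Spots that carried at least 1 UMI of Th and at least 1 of Dbh were found in the embryo sections alone. There were 130 of 3220 spots at E13.5 (4.04%, exact Clopper-Pearson 95% interval 3.38 to 4.78%) and 32 of 3588 at E16.5 (0.892%, 0.611 to 1.26%). In the P0 sections 0 of 363 and 0 of 264 spots did, with exact upper limits of 1.01% and 1.39% (a floor of 3 counts allows up to 0.826% and 1.14%). The 10 and 4 P0 spots with Th and the 6 and 5 with Dbh were therefore separate spots. With so few spots of either gene, the lack of shared spots says little. At E13.5 the 130 spots held 4.60% of all UMIs. They held 84.4% of the Dbh UMIs, 62.4% of Th, 52.8% of Slc18a2, 49.6% of Phox2a, 41.3% of Chgb, 28.6% of Chga, 26.3% of Ddc and 23.8% of Hand2. At E16.5 the 32 spots held 1.04% of all UMIs but 60.0% of the Dbh UMIs, 52.6% of Th and 36.4% of Phox2a. They held there 10.1% of Hand2, 5.54% of Slc18a2, 4.32% of Ddc, 2.28% of Chgb and 1.68% of Chga. The spots were also deeper than the rest, with median UMIs of 33017 against 29114.5 in the E13.5 section and 33783 against 26653 in that of E16.5. With spots thinned to 10000 UMIs, leaving out 166 and 450 shallower ones, 55 and 11 spots carried both. Thinning lowers the count at any depth, so the part of the greater depth of these spots was not tested.

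On the hexagonal grid of the array, most of these spots touched one another. Sites were defined as groups of at least 3 touching spots. At E13.5 there were 7 sites of 48, 14, 11, 10, 4, 3 and 3 spots, numbered in that order, with 37 spots outside them. At E16.5 there were 3 sites of 13, 6 and 5 spots, with 8 outside. At E13.5 the sites fell at opposite sides of the array. Sites 1, 2 and 6 lay within columns 2 to 24 and rows 24 to 39, with site 1 only 2 grid steps from sites 2 and 6. Sites 3, 4 and 5 lay in columns 106 to 125, with sites 3 and 4 again 2 steps apart and site 5 lying 4 steps from each. Between site 1 and site 4 there were 59 steps. At E16.5, site 1 lay at the edge of the array (from column 121 on, rows 7 to 12), 20 steps from sites 2 and 3, which were 2 steps from each other.

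**Figure D2:**
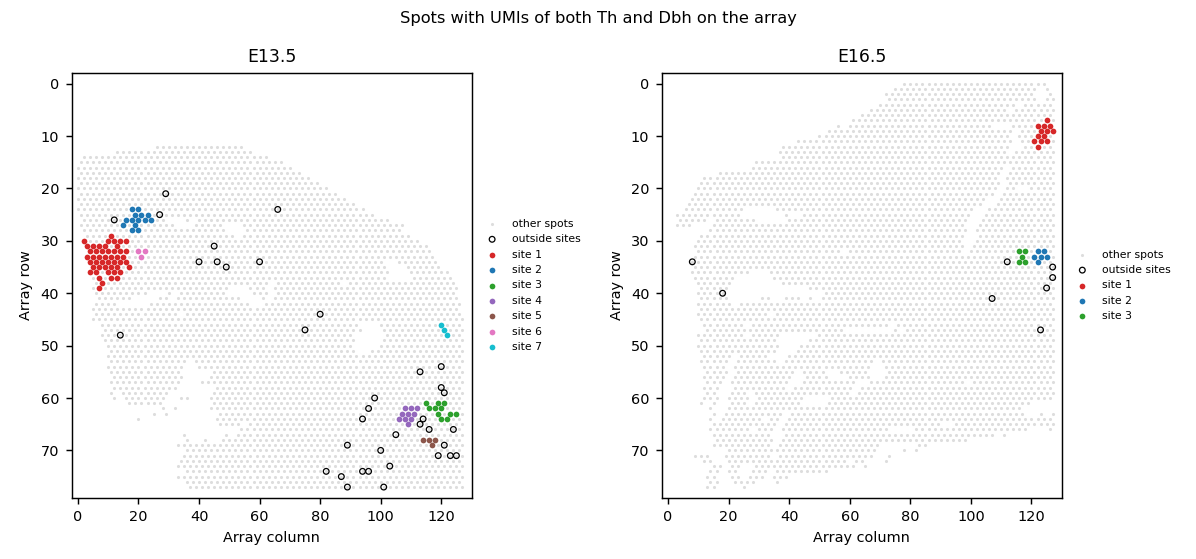
Array positions of the spots with Th and Dbh UMIs at E13.5 (left) and E16.5 (right), by array column and row; filled colours are the numbered sites, open circles such spots outside any site, and grey all other spots. The E13.5 section shows 7 sites, the largest of 48 spots at the low-column side, and the E16.5 section 3, the largest of 13 spots at the high-column edge.

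Site 1 at E13.5 held most of the Th and Dbh of its section. Its 48 spots carried 833 Th UMIs, which is 52.6% of the section, and 1248 Dbh UMIs, which is 67.6%. A spot there had from 1 to 115 Th UMIs with a median of 5, and from 1 to 168 Dbh UMIs with a median of 6. Summed over the site, Th stood at 446 CPM (416 to 477) against 6.32 CPM in spots without the pair, and Dbh at 668 CPM (631 to 706) against 3.07 CPM. Since Th and Dbh chose these spots, their own contrast is a description.

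The other members were high in the same spots. Chgb reached 1350.2 CPM in E13.5 site 1 against 42.1 CPM in spots without the pair, Chga 708 against 40.3 CPM, and Slc18a2 225 against 5.16 CPM. Ddc had 165 CPM there against 11.7 CPM, Hand2 229.6 against 18.0 CPM, and Phox2a 232 against 6.68 CPM. The counts were concentrated: 3 spots held 48.3% of the site's Chgb UMIs, 40.1% of Chga, 38.1% of Dbh and 35.1% of Th. The spot at row 33, column 5, with 65405 UMIs, had 115 Th, 164 Dbh, 28 Ddc, 51 Slc18a2, 207 Chga, 413 Chgb, 32 Hand2 and 28 Phox2a UMIs. Its neighbour at row 34, column 6 had 89 Th, 87 Dbh and 316 Chgb UMIs. Spots of the site were deep, with a median of 40456.5 UMIs.

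The members differed in the spots around site 1. In the 33 spots 1 step outside it, which by construction never carry Th and Dbh together, so that low Th and Dbh there is fixed by the rule, Chgb stood at 33.8 CPM, Slc18a2 at 3.56 CPM and Th at 8.02 CPM. These are close to the 44.9, 6.19 and 7.73 CPM of the 3012 spots 6 or more steps away. Hand2 had 50.8 CPM in the same ring against 16.6 CPM far away, Phox2a 16.03 against 7.28 CPM and Dbh 23.2 against 4.46 CPM. They were thus above the far level while Chgb was not. The far spots are no local baseline for Chgb, since they include a group of 171 touching spots with Chgb at 154 CPM. At 2, 3, 4 and 5 steps Chgb had 14.3, 25.5, 9.56 and 22.6 CPM, below its level 1 step out. Hand2 had 47.3, 40.1, 57.4 and 64.5 CPM at those steps, with no steady fall from the site. Rings from 2 steps outwards include spots of sites 2 and 6.

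Genes of the same pathway that the rule did not use were also found in E13.5 site 1. Gch1, which makes the tetrahydrobiopterin cofactor of Th, had 139 CPM there, and Cyb561, the granule cytochrome that recycles ascorbate for Dbh, 217 CPM. Slc18a1 (the transporter VMAT1 of endocrine cells) had 69.6 CPM, and Slc6a2 (the noradrenaline transporter of the cell surface) 54.6 CPM. Pnmt, which turns noradrenaline into adrenaline, had 3 UMIs. Of the adrenal cortex markers, Nr5a1, Cyp11a1, Cyp21a1 and Cyp11b1 had 0 UMIs in the site and Star 1. In spots without the pair these genes had 0.106, 0.255, 0.0213, 0 and 0.616 CPM. Such levels are too low for counts of 0 or 1 to show absence from the site. The list of 11 summed to 38.5 CPM, with 6 detected, against 33.2 CPM in spots without the pair. The chromaffin marker list (Pnmt, Slc18a1, Penk, Htr3a, Dlk1, Epas1) had 5 of 6 genes detected, Htr3a at 0, but all 6 were also found in spots without the pair. Penk, the enkephalin precursor gene, had 49.2 CPM in the site against 88.0 CPM in those spots, and Pnmt 1.61 against 1.84 CPM. Slc18a1, Dlk1 and Epas1 of the list went the other way over all E13.5 spots with the pair. They had 31.5, 1220 and 84.2 CPM against 0.563, 602 and 28.1 CPM in spots without it. No gene of the list was at least 2-fold lower there. Pou4f1, a sensory neuron factor, had 0 UMIs in site 1.

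Site 2 at E13.5, 2 steps from site 1, had another profile. Its 14 spots had 80.0 CPM of Th (54.0 to 114) and 296 CPM of Dbh, with at most 4 Th UMIs in a spot. Phox2a, at 229 CPM (184 to 283), and Hand2, at 192 CPM (150.3 to 242), were near their levels in site 1, at 232 and 229.6 CPM, whereas Chgb at 72.0 CPM and Slc18a2 at 32.0 CPM were far below those of site 1. The gene with the highest ratio to spots without the pair was Vip (vasoactive intestinal peptide), at 181 against 1.52 CPM. Gfra3, Tlx2 and Cartpt were among its 10 leading genes.

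Sites 3, 4 and 5 at E13.5 combined Th, Dbh and Phox2a with almost no Hand2. In the 11 spots of site 3, Th had 63.0 CPM, Dbh 109.6 CPM and Phox2a 41.1 CPM, but Hand2 1 UMI (2.74 CPM). In the 10 spots of site 4, Th had 83.0 CPM, Dbh 211 CPM, Slc18a2 174 CPM and Phox2a 136.5 CPM, and Hand2 again 1 UMI. The 4 spots of site 5 had 6 Th, 8 Dbh, 4 Phox2a and 0 Hand2 UMIs. Slc6a2 led site 4 at 321 CPM against 1.94 CPM in spots without the pair, and led site 3 at 82.2 CPM. Slc18a1 and Tlx2 had 0 UMIs in all 3 sites, and the neural crest and glial factor Sox10 also 0. In spots without the pair Slc18a1 and Tlx2 had only 0.563 and 2.15 CPM, so their 0 UMIs in so few spots show little. Sox10 had 11.3 CPM in spots without the pair. Genes of neural tube patterning were among the leading 10 of each: Pax7, En1 and Dbx1 in site 3, Dbx1 in site 4 and Pax5 in site 5. Phox2a and Hand2 thus occurred together in sites 1 and 2 and apart in sites 3 to 5.

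Sites 6 and 7 at E13.5 had 3 spots each and 3 Th UMIs each. Site 6 had 0 Phox2a UMIs and was led by the skeletal muscle genes Mymk, Myh8 and Tnnc2, with Ddc at 111 CPM on 10 UMIs. Site 7 had 5 Phox2a and 0 Hand2 UMIs, and Hoxb5 and Hoxa5 were among its 10 leading genes. Each of these 6 spots had 1 Th UMI, so neither site is left if 2 UMIs of each gene are required, a rule that leaves 3 sites at E13.5.

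The largest E16.5 site also carried all 8 genes. Its 13 spots had 1 to 29 Th UMIs with a median of 3, and 1 to 45 Dbh UMIs with a median of 9. Th stood at 319 CPM (255 to 395), Dbh at 570.0 CPM (482 to 669), Ddc at 479 CPM, Phox2a at 384 CPM and Hand2 at 137 CPM. Slc18a2 had 133 CPM, Chga 209 CPM and Chgb 342 CPM. Slc6a2 had 269.8 CPM. Hmx1, a homeobox gene of sympathetic neurons in mouse, had 198 CPM, while Slc18a1 had 2 UMIs, Pnmt 1, and Star and Nr5a1 0. In E13.5 site 1, Slc18a1 had 130 UMIs (69.6 CPM), but that site has 48 spots, so the 2 counts are not at a like depth. Over all E16.5 spots with the pair, Slc18a1 had 4.53 CPM on 5 UMIs and Pnmt 5.43 CPM on 6 UMIs. In E16.5 spots without the pair they had 1.09 and 1.14 CPM. Star and Nr5a1 had 0.602 and 0.267 CPM in those spots, too low for 0 UMIs in 13 spots to show absence.

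Sites 2 and 3 at E16.5 were fainter and lay among heart and lung genes. Site 2 had 8 Th and 13 Dbh UMIs over 6 spots, and its leading genes included the surfactant gene Sftpc at 4443 CPM. Site 3 had 16 Th and 9 Dbh UMIs over 5 spots, with Phox2a at 192 CPM, Hand2 at 111 CPM, the serotonin receptor gene Htr3a at 204 CPM and the atrial gene Myl7 at 8150.2 CPM. Slc6a2 had 0 UMIs in both. Neither is left if 2 UMIs of each gene are required. The heart list summed to 17521 CPM in site 2 and 13786 CPM in site 3, against 2352 CPM in spots without the pair, and its part in the Hand2 level was not tested.

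**Figure D3:**
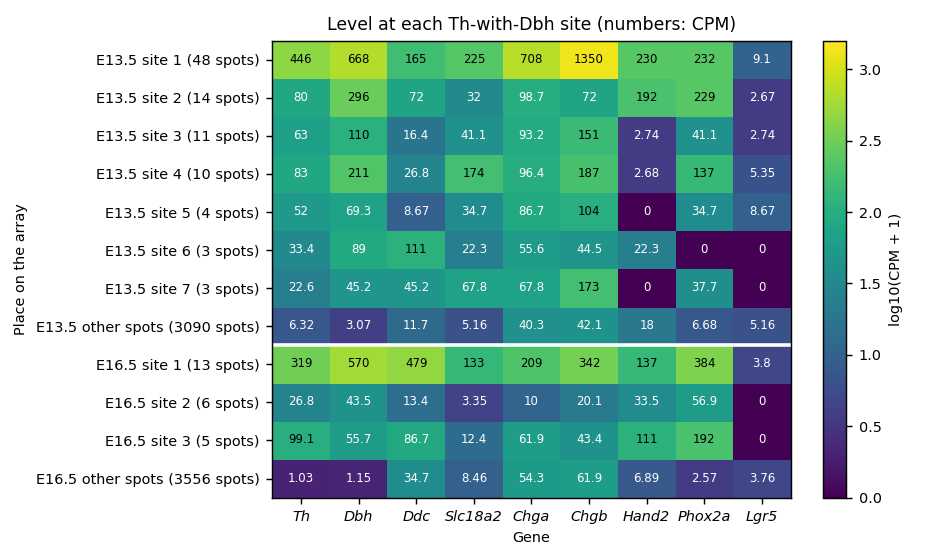
Level of each gene in each site and in spots without the pair, as CPM written in the cells and coloured by log10(CPM + 1); rows are the E13.5 sites, the E16.5 sites and the spots without the pair. E13.5 site 1 has the highest Chgb (1350.2 CPM), sites 3 to 5 hold Phox2a with 0 or 1 Hand2 UMI, and E16.5 site 1 holds the highest Ddc (479 CPM).

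Over all spots with the pair, every member other than Th and Dbh was above its level in the other spots in both embryo sections. At E13.5 the log2 ratios of CPM (with a pseudocount of 0.5 CPM) were 4.41 for Slc18a2, 4.25 for Phox2a, 3.85 for Chgb, 3.04 for Chga, 2.83 for Ddc and 2.66 for Hand2. At E16.5 they were 5.51 for Phox2a, 3.32 for Hand2, 2.41 for Slc18a2, 2.08 for Ddc, 1.14 for Chgb and 0.69 for Chga. Among all genes with at least 20 UMIs, 294 of 17217 (1.71%) passed a 2-fold ratio at E13.5 and 765 of 17849 (4.29%) at E16.5, and the median log2 ratio was 0.00 and −0.13. The members were chosen on this contrast, so 8 of 8 past 2-fold at E13.5 and 7 of 8 at E16.5 describes the choice.

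Much of this came from the largest sites. Without E13.5 site 1, the log2 ratio at E13.5 was 3.03 for Slc18a2, 3.29 for Phox2a, 1.20 for Chgb, 0.87 for Chga, 1.37 for Ddc and 1.02 for Hand2. Without E16.5 site 1, it was 4.37 for Phox2a, 2.87 for Hand2, 1.21 for Slc18a2, 0.38 for Ddc and 0.23 for Chgb, and Chga lay below the other spots at −0.12. Of these 6 members, Phox2a had the highest ratio in both sections once the largest site was left out.

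Other genes of the pathway were read from 3 lists of 36 genes, of which 35 had at least 20 UMIs in each section. At least 2-fold higher in spots with the pair were 18 of them in the E13.5 section and 16 in the E16.5 section, 14 being the same genes. Over all genes with at least 20 UMIs, 1.71% and 4.29% were. Without the largest site of each section the counts were 15 and 9, for which no share over all genes is given. The catecholamine list (cofactor supply, transport and breakdown) gave 7 of 12 at each stage, with median log2 ratios of 1.18 and 1.41 against 0.00 and −0.13 over all genes. Its members in both sections were Gch1 (4.01 at E13.5, 2.19 at E16.5), Pcbd1 (1.21 and 1.51), which recycles the cofactor, Cyb561 (2.93 and 2.77), Slc18a1 (4.91 and 1.66), Slc6a2 (4.74 and 6.18) and the degrading enzyme Maoa (1.56 and 1.31). The dopamine transporter gene Slc6a3 was the one with under 20 UMIs.

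The granule list moved least. Of 13 genes, 3 in the E13.5 section and 2 in the E16.5 section were at least 2-fold higher, with medians of 0.57 and 0.23, or 0.37 at E16.5 with Ptprn2, at 0 UMIs there, set at a floor of 3 counts over the spots. Ptprn, a membrane protein of dense-core granules, passed in both (2.08 and 1.22), while the prohormone convertase Pcsk2 was lower at E16.5 (−1.29). The autonomic lineage list of transcription factors and Ret gave 8 of 10 in the E13.5 section and 7 of 10 in that of E16.5, with medians of 1.75 and 1.96. In both sections these included Hand1 (4.72 and 4.28), Tlx2 (4.01 and 3.86), Gata2 (2.30 and 2.37), Isl1 (1.47 and 2.99), Gata3 (1.39 and 1.56) and the GDNF receptor gene Ret (1.36 and 1.54). Lists of neighbouring tissue moved as well at E16.5, where 4 of 5 heart genes, 4 of 4 lung genes and 5 of 7 blood genes were at least 2-fold higher, and their part in the ratios was not tested. No adrenal cortex gene of 6 was at least 2-fold higher at either stage. At E16.5 the melanocortin receptor accessory gene Mrap had 9.96 against 78.8 CPM, while Star and Mc2r had 0 UMIs in spots with the pair, too few to read a direction. In spots without the pair Mrap had 8257 UMIs, but Star 63 and Mc2r 133, so Mrap alone is no measure of adrenal cortex here.

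The genes with the highest ratio at E13.5, in order, were Dbh, Cfap61, Th, Slc18a1, Slc6a2, Hand1, Scnn1b, Slc18a2, Sctr and Sytl4. Cfap61, known as a component of motile cilia, had 68.8 CPM in spots with the pair against 0.893 CPM elsewhere, on 312 UMIs, a log2 ratio of 5.64. Scnn1b (a subunit of the epithelial sodium channel) had a ratio of 4.44, Sctr (the secretin receptor) 4.39 and Sytl4 (a granule-docking protein) 4.34. At E16.5 the 10 highest included Dbh, Slc6a2, Th, Phox2a, Htr3a, Hmx1, Gfra3 and Chrnb4. Htr3a stood at 4.70, Hmx1 at 4.27, Gfra3 (the artemin receptor) at 4.05 and Chrnb4 (a nicotinic receptor subunit of autonomic ganglia) at 3.97.

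Likeness to the Th and Dbh pattern was measured as Pearson's r over spots of log(1 + UMIs per 10000) with the mean of Th and Dbh. It describes spots of 1 section, which share depth and neighbours. Among the members at E13.5 (3220 spots), Phox2a had 0.651 and Slc18a2 0.633, Chga and Chgb 0.461 and 0.451, Ddc 0.417 and Hand2 0.345. At E16.5 (3588 spots) Phox2a had 0.604, and the others ranged from 0.104 (Chga) to 0.274 (Hand2). Of 13626 genes at E13.5, with a median r of 0.00903, the 10 closest other genes included Cfap61 (0.710), Tlx2 (0.631), Sytl4 (0.611), Hand1 (0.595), Gch1 (0.562), Cyb561 (0.521), Slc6a2 (0.514), Dgkk (0.412) and Hand2os1 (0.384). At E16.5 they included Hmx1 (0.412), Prph (0.310), Hand2os1 (0.270), Cyb561 (0.267), Isl1 (0.231), Gata2 (0.227), Rgs4 (0.224) and Gch1 (0.221). Hand2os1 lies beside Hand2 on the other strand, and no source used here says whether the counting used strand.

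Outside the spots with the pair, the members went separate ways. Groups here are touching spots with at least 3 UMIs of a gene, and for Th and Slc18a2 with no Dbh. The 3 groups for Th at E13.5 were all led by sensory ganglion genes. A group of 22 touching spots (rows 64 to 68, columns 81 to 91) held 176 Th UMIs, or 230.0 CPM, with Pou4f1 at 111 CPM and Prdm12 at 166 CPM. A neighbouring group of 18 spots held 90 Th UMIs. In the 64 spots richest in sensory ganglion markers, the top 2% of the section, Th stood at 138 CPM (123 to 154) against 13.3 CPM in the rest. At E16.5 the same rule gave 72 spots with 6.88 CPM of Th (3.66 to 11.8).

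Outside the spots with the pair, most Slc18a2 at E16.5 lay with serotonin genes. A group of 48 touching spots there (rows 34 to 52, columns 10 to 20) held 591 Slc18a2 UMIs, or 257 CPM, with 7 Th UMIs and, by the choice of spots without Dbh, 0 Dbh UMIs, and had Tph2, the neuronal enzyme that starts serotonin synthesis, at 258 CPM and the serotonin transporter gene Slc6a4 at 713 CPM. In the 72 spots richest in serotonin neuron markers, Ddc had 255 CPM (237 to 275) against 29.99 CPM in the rest, and Slc18a2 225 against 3.05 CPM. Of the section's 938 Slc18a2 UMIs, 624 lay in these 72 spots. Ddc was divided among several tissues. A group of 50 E16.5 spots led by serotonin neuron markers held 671 Ddc UMIs, groups of 73 and 60 spots led by striated muscle markers held 436 and 272, and a group of 59 spots led by heart markers held 370. None of the 6 Ddc groups found at E13.5 was led by serotonin neuron markers. In the spots richest in striated muscle markers it had 70.3 CPM at E13.5, against 14.0 CPM in the rest, and 128 CPM at E16.5, against 33.6 CPM, where Th had 0 UMIs.

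The granins were the most widespread members in the embryo sections. At P0, Hand2 was in 18.7% and 17.8% of spots and Chga in 2.48% and 3.79%. At E16.5 a connected group of 568 spots held 4333 of the 5779 Chga UMIs of the section. A separate group of 15 spots (rows 65 to 70, columns 15 to 22) had Chga at 544 CPM together with the pituitary hormone precursor gene Pomc at 4604 CPM, and Chgb reached 1061 CPM in 13 spots at the same place. In the spots richest in serotonin neuron markers Chgb stood at 551 CPM against 49.6 CPM in the rest. In the spots richest in liver markers at E13.5, Chga had 2 UMIs, or 1.11 CPM, and Th 0.

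Hand2 lay mainly outside the spots with the pair. At E13.5 a group of 54 spots had 183 CPM of Hand2 with 1 Th UMI in all, among face and limb mesenchyme markers. The spots richest in heart markers had 85.3 CPM at E13.5 (74.2 to 97.6) against 20.9 CPM in the rest, and 37.7 CPM at E16.5 (31.8 to 44.5) against 6.48 CPM. Phox2a outside the spots with the pair occurred at E13.5 in small groups, of which the largest had 7 spots and 37 UMIs. Some of these groups held Th or Dbh UMIs, up to 14 of Dbh in a group of 5 spots.

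Lgr5 encodes a receptor for R-spondins that amplifies Wnt signals and marks stem cells in several epithelia. Its level (ENSMUSG00000020140, chr10:115450314-115587780) was 5.24 CPM in the E13.5 section (4.80 to 5.71), 3.73 CPM in that of E16.5 (3.37 to 4.12), and 6.63 and 8.02 CPM at P0. In the 130 E13.5 spots with Th and Dbh there were 31 Lgr5 UMIs in 23 spots, or 6.83 CPM (4.64 to 9.70), against 5.16 CPM (4.72 to 5.64) in the other spots. The 95% interval of the log2 ratio, −0.17 to 0.93, includes no difference. The share of spots with an Lgr5 UMI was 17.7% (11.6 to 25.4%) against 11.2% (10.1 to 12.4%), and with spots thinned to 10000 UMIs, 166 shallower ones left out, it was 5.38% against 4.96%. In the 32 E16.5 spots with the pair there was 1 Lgr5 UMI, or 0.906 CPM (0.0229 to 5.05), against 3.76 CPM (3.3997 to 4.15) in the other spots, a difference that this depth does not resolve.

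Site 1 at E13.5 held 17 of the 31 Lgr5 UMIs, spread over 13 of its 48 spots, or 9.10 CPM (5.30 to 14.6). The 3 spots with the most Th UMIs had 3, 2 and 1 Lgr5 UMIs. Without site 1 the level was 5.25 CPM (2.87 to 8.80) on 14 UMIs, close to that of the other spots. By comparison, the 64 E13.5 spots richest in epithelial markers had 41.3 CPM of Lgr5 (31.7 to 53.0). No P0 spot had the pair. The 16 and 9 P0 spots with Th or Dbh held 6 and 3 Lgr5 UMIs, 10.4 CPM (3.82 to 22.7) and 9.83 CPM (2.03 to 28.7), against 6.402 and 7.94 CPM in spots with neither, again within counting error. The related receptor genes Lgr4 and Lgr6 had 25.6 and 1.10 CPM in the E13.5 spots with the pair, against 34.6 and 3.38 CPM in the other spots.

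Seen from the other side, the 370 E13.5 spots with an Lgr5 UMI had higher levels of the members than the 2850 without, and this rested on site 1. Th stood at 57.9 against 10.5 CPM, Dbh at 71.3 against 11.7 CPM, Chgb at 186 against 52.7 CPM and Slc18a2 at 30.2 against 7.79 CPM. Without the 48 spots of site 1, 13 of them with Lgr5, Th had 8.73 CPM (7.07 to 10.7) against 7.64 CPM (7.06 to 8.24). Dbh then had 5.55 CPM (4.24 to 7.13) against 6.27 CPM (5.75 to 6.83), intervals that overlap. Slc18a2 had 4.37 against 6.53 CPM, Chga 23.0 against 43.5 CPM and Chgb 25.3 against 45.9 CPM, so these 3 members, higher with Lgr5 before, were now lower. Hand2 then had a log2 ratio of −0.00663. At E16.5 Th had 1.65 CPM in the 338 spots with an Lgr5 UMI against 2.21 CPM in those without, and Chgb 58.9 against 63.1 CPM. Over all E13.5 spots, r between Lgr5 and the Th and Dbh score was 0.0258, and at E16.5 it was −0.0156.

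**Figure D4:**
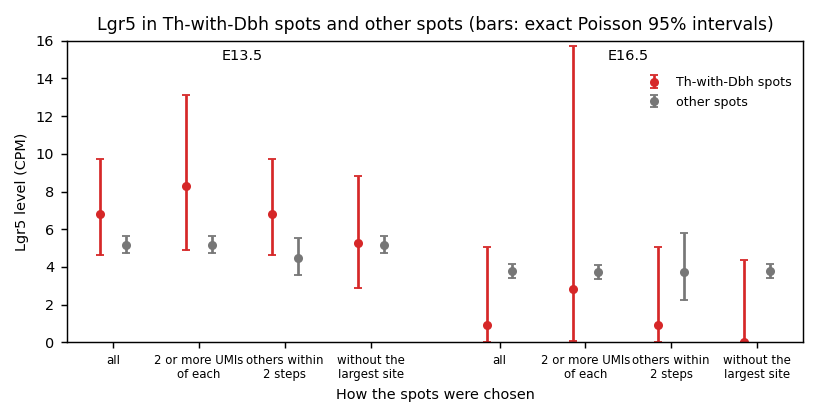
Lgr5 level in spots with Th and Dbh and in other spots at E13.5 and E16.5, in CPM with exact Poisson 95% intervals, under 4 choices of spots. At E13.5 the spots with the pair had 6.83 CPM against 5.16 CPM, and 5.25 CPM without the largest site; all intervals in a panel overlap.

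Regions of the newborn esophagus were compared next. Spots of each P0 section in its top 25% by epithelial or by muscle markers, none of them members, are called epithelium-rich or muscle-rich. UMIs were summed by section and region and tested with edgeR's quasi-likelihood test, blocking on the section, with p-values adjusted over 12689 genes by Benjamini-Hochberg. Blocking takes out the level of each section, so the p-values reflect how unevenly the regions differed within these 2 sections. Their error has 2 residual degrees of freedom and 16.6 prior ones, which pool the spread over genes. Small p-values therefore rest largely on that pooled spread and cover these 2 sections only. Of all genes tested, 26.6% were higher and 29.4% lower in epithelium-rich spots. The 4 members with enough UMIs to test, Ddc, Chga, Chgb and Hand2, were lower there. In epithelium-rich spots of the 2 sections Hand2 had 1.89 and 0.347 CPM, while muscle-rich spots had 42.9 and 44.1 CPM (log2 −4.87 ± 0.37 SE, adjusted p = 9.89e-10). Ddc had 0.539 and 2.78 CPM against 16.2 and 46.0 CPM (−3.99 ± 0.39, adjusted p = 4.78e-08), with muscle-rich values that differ between sections. The groups did not overlap for either gene, which says little with 2 sections, and the share of such genes over all genes is not given. As a log2 ratio of CPM (pseudocount 0.5 CPM), Hand2 stood at −5.72 with replicate 2 alone, where epithelium-rich spots had 1 UMI, and at −4.18 with replicate 1 alone.

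Both granins were lower in epithelium-rich spots as well. Chga had 0.539 and 0 CPM in epithelium-rich spots, 2 UMIs in all, while muscle-rich spots had 6.57 and 7.66 CPM, 25 UMIs in all (log2 −4.14 ± 0.86, edgeR adjusted p = 0.000423). Chgb had 0 UMIs in epithelium-rich spots of either section, while muscle-rich spots had 5.56 and 7.02 CPM, which makes it at least 13.6-fold lower with a floor of 3 counts over the region (edgeR adjusted p = 0.000144). Depth differed too: the median spot held 39325 and 38936.5 UMIs in the epithelium-rich set, against 20274 and 22535.5 UMIs in the muscle-rich set. Markers of enteric neurons moved the same way, summing to 16.45 and 4.52 CPM against 263 and 183 CPM. Of these markers 6 of 6 tested genes were lower (Ret among them), against 29.4% of all genes tested. The part of these markers in the granin result was not tested. With striated muscle markers alone defining the muscle-rich spots, the call for Chga was lost (log2 −2.71, edgeR adjusted p = 0.203). With replicate 1 alone its log2 ratio of CPM (pseudocount 0.5 CPM) was −2.76, and replicate 2 had 0 UMIs in epithelium-rich spots.

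Th, Dbh, Slc18a2 and Phox2a had too few UMIs at P0 to pass the filter of that fit. Th had 7 UMIs in epithelium-rich spots of both sections and 0 in muscle-rich spots. Dbh had 1 against 6, Slc18a2 3 against 18, and Phox2a 1 against 22. Fitted without the filter, Phox2a (edgeR adjusted p = 0.000138) and Slc18a2 (0.00791) passed 0.05, and Th (0.143) and Dbh (0.211) did not. Phox2a lay with Hand2 in 5 of its 7 spots in replicate 1 and 8 of its 9 in replicate 2. In the Phox2a spots Ret, an essential receptor of enteric neuron precursors, had 47.1 and 55.2 CPM against 4.88 and 2.69 CPM in spots without Phox2a, and Nos1 47.1 and 55.2 CPM against 2.19 and 0.708 CPM. Both kinds of spot were also high in the skeletal muscle actin gene Acta1, at 405 and 3980 CPM in Phox2a spots against 212 and 657 CPM in spots without Phox2a. Ddc spots had 1922 and 3514 CPM of Acta1 against 82.6 and 244 CPM in spots without Ddc. Ret stood at 17.4 and 4.09 CPM in Ddc spots against 4.83 and 4.89 CPM, so it was higher with Ddc in replicate 1 alone.

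The other pathway genes split by list at P0. Over all genes tested, 26.6% were higher and 29.4% lower in epithelium-rich spots, the shares to set beside each list. Of 10 catecholamine genes tested, 3 were higher and 2 lower, near those shares, with a median log2 of 0.00 against −0.04 over all genes. Cyb561 had 63.6 and 61.5 CPM against 13.1 and 10.2 CPM (log2 2.65 ± 0.19, edgeR adjusted p = 6.12e-10), and Slc6a2 10.8 and 6.60 CPM against 5.05 and 3.19 CPM (1.32 ± 0.39, edgeR adjusted p = 0.00679). Pts, of cofactor synthesis, was higher (0.91, edgeR adjusted p = 0.000234), and Pcbd1 (−1.35) and Maob (−1.53) were lower. All 7 granule genes tested were lower, with a median of −3.71, led in size by Pcsk1n (−4.66). Cpe, a peptide-processing enzyme, had 29.1 and 21.9 CPM against 438 and 363 CPM (−3.71 ± 0.12, edgeR adjusted p = 3.93e-14). All 6 lineage genes tested were lower, among them Isl1 (−4.36), with a median of −3.33 once Gata2, at 0 UMIs in epithelium-rich spots, was set at the floor.

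**Figure D5:**
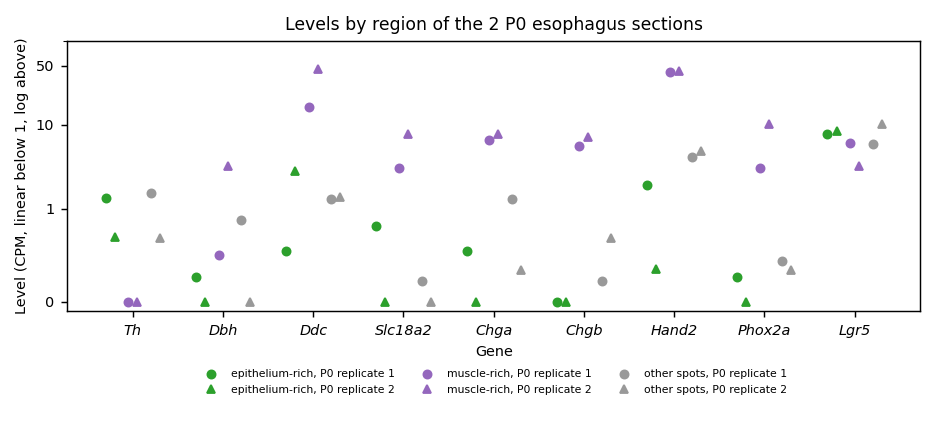
Level of the 8 genes and Lgr5 in epithelium-rich, muscle-rich and other spots of the P0 sections, in CPM on an axis that is linear below 1 and logarithmic above; circles are replicate 1 and triangles replicate 2. Hand2 lay at 1.89 and 0.347 CPM where epithelium markers were high, against 42.9 and 44.1 CPM where muscle markers were, and Lgr5 7.82 and 8.34 against 6.06 and 3.19 CPM.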

How the data were processed

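The deposited files are raw count matrices (UMIs of each gene in each spot) of 4 Visium sections, made by the authors with Space Ranger 2.0.0 per the file headers and against mm10 per the submitters' processing notes. The values are whole numbers with no normalization. Fresh frozen, OCT-embedded tissue was sectioned at 8 µm, per the labels' protocols. Sample titles gave the groups and replicate numbers; tissue images were not used.

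Spots with at least 500 UMIs were kept. Levels are UMIs per 1000000 (CPM) with exact Poisson 95% intervals, and shares have exact Clopper-Pearson 95% intervals. PCR copies are removed by UMIs, and intervals and floors (3 counts) cover counting error only. In the embryo sections, with 1 section a stage, spots with Th and Dbh were described by log2 CPM ratios (pseudocount 0.5 CPM, genes with at least 20 UMIs, 2-fold) with no test. Tissue-rich spots are the highest 2% of an embryo section by the mean of log(1 + UMIs per 10000) over a marker list without members. At P0, epithelium-rich and muscle-rich spots are the highest 25%, and 0 spots were in both. Counts were summed by section and region (6 sums) and fitted with edgeR 4.0.16 in R 4.3.3 (TMM, filterByExpr by region, quasi-likelihood F test, Benjamini-Hochberg at 0.05), with the section as a block. The block is the section that both regions come from, so the sums are paired by design. The fit had 2 residual and 16.6 prior degrees of freedom and was tested on simulated data. Region markers stayed out of the counts of calls. Other tools were DESeq2 1.42.0, Python 3.11.15, numpy 2.4.6, pandas 2.3.3, scipy 1.17.1 and matplotlib 3.10.9.

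Named genes are the 8 members, list genes past 2-fold in both embryo sections, the 10 highest ratios and the 10 highest correlations per embryo section (at least 20 UMIs in spots with the pair and 200 in the section), and Lgr5, Lgr4 and Lgr6. Other genes, such as those leading a site, were chosen after their values were seen. Some genes that meet this rule are not reported here. Members and lists were chosen with earlier results of these data known. Gene positions and promoters are from RefSeq (GRCm38.p6), joined by symbol, which matched 26335 of 32285 symbols and 8 of 8 members. Alternatives changed the UMI minimum, the spot rule, the neighbours compared, the pseudocount, the CPM total, the size of tissue-rich sets, the P0 markers, filter, normalization, tool and block, and left out each P0 section. Leaving out the largest site was chosen after the data were seen.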

Additional observations from a re-analysis of the deposited data

Results flagged for a closer look

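Lgr5 in spots with Th and Dbh lay on opposite sides of the other spots in the embryo sections. The log2 ratio with a pseudocount of 0.5 CPM was 0.37 at E13.5, on 31 UMIs, and −1.60 at E16.5, on 1 UMI. The difference between the stages was not tested, since each has 1 section, and the counting interval of the ratio includes 0 at either stage.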

How the results depend on the processing

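Of 650 alternatives, 90 bear on the main results, and 74 of these were labelled the same, 15 moved and 1 weaker. For counts, shares and levels, the same means within the spread allowed. That spread took in 0.906 and 2.82 CPM of Lgr5 in E16.5 spots with the pair. For the P0 members the same means the same direction and side of the threshold, or direction alone with 1 section left out. The number of spots with Th and Dbh was 57 at E13.5 and 13 at E16.5 when 2 UMIs of each were required, and 55 and 11 after thinning to 10000 UMIs. E13.5 sites numbered 4 when spots up to 2 steps apart were joined and 3 with 2 UMIs of each gene, and E16.5 then had 1 site. In the spots thinned, Lgr5 was found in 5.38% of E13.5 spots with the pair against 4.96% of other spots, and in 0% against 4.92% at E16.5. The E13.5 spots within 2 steps had 4.48 CPM of Lgr5. Without the largest site, an alternative chosen after the data were seen, Lgr5 at E16.5 was 0 CPM in spots with the pair, 9 pathway genes passed 2-fold at E16.5 and the log2 ratio of Chga there was −0.12. Without the largest site, the log2 ratio of spots with over spots without an Lgr5 UMI at E13.5 turned to −0.16 for Dbh, −0.53 for Slc18a2, −0.91 for Chga, −0.85 for Chgb and −0.00663 for Hand2. At P0, Chga had a log2 difference of −2.71 with striated muscle markers alone (edgeR adjusted p = 0.203), where Chgb had too few UMIs to test. DESeq2's Wald test called 4720 genes, against 7105 with edgeR. Without the replicate block, the section, 6774 genes were called, and Ddc (log2 −4.02), Chga (−4.13), Chgb (−7.08, a fitted value with 0 UMIs in epithelium-rich spots and no bound) and Hand2 (−4.87) stayed past the threshold. With 1 P0 section left out there is no test, and log2 ratios of CPM with a pseudocount of 0.5 CPM ranged from −4.00 to −3.83 for Ddc, −4.03 to −2.76 for Chga, −3.91 to −3.60 for Chgb and −5.72 to −4.18 for Hand2. The pseudocount sets both Chgb values and the −4.03 of Chga, whose epithelium-rich spots had 0 UMIs, so these are no measure of stability. Of the 560 other alternatives 323 stayed within the spread allowed, 231 moved and 6 reversed. The cause of these moves was not tested. Depth limits Th, Dbh, Slc18a2 and Phox2a at P0 and Lgr5 in the E16.5 spots with the pair. Each embryo stage rests on 1 section, whose plane and animal are not named.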
